A study of Glycine max with 4 samples.

Results

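Close pairs are runs of exactly 2 neighbouring sites bound by the product of GLYMA.07G038400, with summits at most 2000 bp apart, in soybean embryos. The sites were chosen from the peak positions of both ChIP replicates: a replicate 1 peak on a chromosome counted as a shared site where it had 1 bp or more in common with a replicate 2 peak. Summits of neighbouring shared sites at most 2000 bp apart were chained, and only runs of exactly 2 were kept. This gave 2407 close pairs with 4814 sites, which is 21.6% of the 22252 shared sites on the 20 chromosomes. The others were 15566 single sites and 569 longer runs, of 3 or more sites, which held 1872 sites.

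The ChIP-seq experiment recovered DNA bound by the protein with an antibody against a peptide of its amino acids 188 to 202. The series holds 2 ChIP samples, described as biological replicates, and 2 inputs of total chromatin without antibody. All came from Williams 82 embryos at early maturation, dissected from seeds 6 to 7 mm long. Input data are present only as the background of the peaks, and DNA recovered by the antibody from other sources cannot be told apart from DNA bound by the protein. Replicate 1 had 31090 peaks and replicate 2 had 25502.

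The authors named the peaks GRF5, with no further explanation in the labels. GRF commonly denotes the growth-regulating factors of plants, transcription factors that bind DNA through a WRC domain and act together with GIF co-activators. They are known for promoting cell proliferation in growing organs. ChIP-seq sees a bound element through sheared chromatin, here fragments of 100 to 500 bp, so elements nearer to each other than a fragment usually merge into 1 peak. Genes and motifs at the pairs were not analysed here for lack of a matching genome and annotation. Positions are 1-based and refer to the assembly of the deposited lists, which the sources used here do not name.

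The 2 summits of a pair were mostly 500 to 2000 bp apart, and their spacing was similar in the other replicate. The median distance was 1187 bp by replicate 1 summits, with an interquartile range of 859 to 1546.5 bp and a minimum of 142 bp. The upper end of 2000 bp is set by the definition. Only 47 pairs were at most 500 bp apart, while 795 were 500 to 1000 bp, 890 were 1000 to 1500 bp and 675 were 1500 to 2000 bp apart. In bins of 100 bp the count reached 111 at 500 to 600 bp and was highest, 205, at 1000 to 1100 bp. Over all neighbouring shared sites the highest count was 297, at 800 to 900 bp. It was 294 at 700 to 800 bp and 292 at 1000 to 1100 bp, so no single distance stood out.

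**Figure D1:**
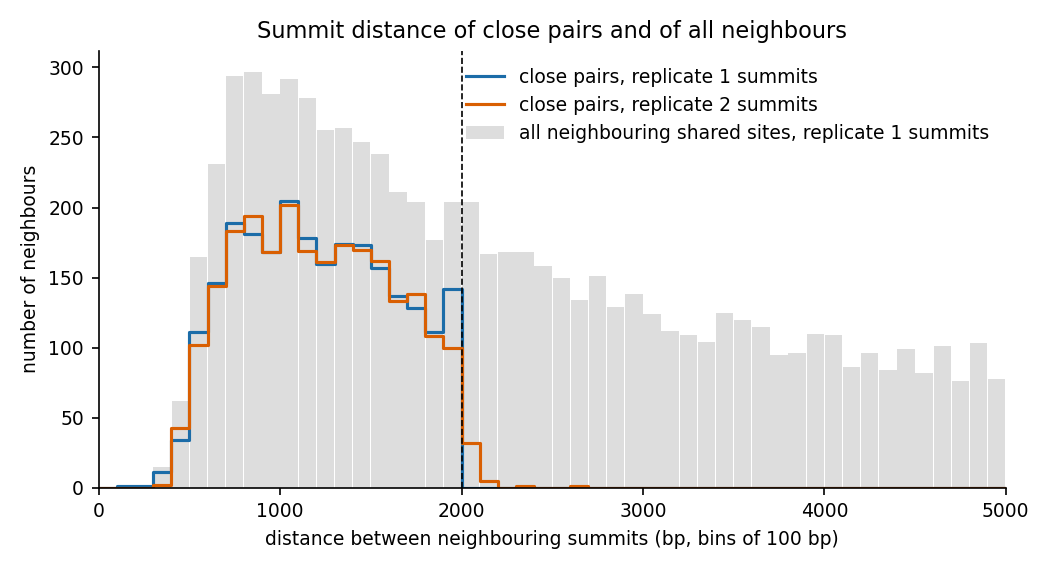
Number of neighbouring summits per 100 bp of distance, with close pairs drawn as lines (replicate 1 and replicate 2 summits) and all neighbouring shared sites as grey bars; the dashed line marks the limit of 2000 bp. The pair lines of the replicates lie close together, and the grey bars decline across the limit without a gap.

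No gap in the spacing of shared sites marks the limit of 2000 bp. Over all neighbouring shared sites, including those of longer runs, 1329 distances lay between 1000 and 1500 bp and 1034 between 1500 and 2000 bp. A further 865 lay between 2000 and 2500 bp and 440 between 4500 and 5000 bp. A pair just inside the limit, on chromosome 4, had summits at 1730609 and 1732609, 2000 bp apart in replicate 1 and 1953 bp in replicate 2. Of the nearest neighbours outside it, those on chromosome 3 had summits at 36394905 and 36396907, 2002 bp apart in replicate 1 and 2074 bp in replicate 2. Neighbours on chromosome 4 were also 2002 bp apart in replicate 1, but 1995 bp in replicate 2. Folds lay between 4.52 and 22.4 in the 2 pairs just inside the limit and between 5.10 and 7.83 in the 2 just outside.

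Summits under 500 bp apart were scarce, and the peaks themselves were of similar size. The sum of the members' half-widths had a median of 463 bp in replicate 1, with a minimum of 230 bp. No neighbouring peaks anywhere in the lists were separated by less than 52 bp in replicate 1 and 51 bp in replicate 2. The free gap between the edges of the members had medians of 693 bp (replicate 1) and 803 bp (replicate 2). The part of peak width in the scarcity of distances under 500 bp was not tested.

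Chosen as separate peaks of replicate 1, nearly all pairs were separate in replicate 2 as well, which is partly set by the rule. The members overlapped different replicate 2 peaks in 2391 pairs (99.3%) and a single joint replicate 2 peak in 16, which were 142 to 908 bp apart in replicate 1. Of the 2589 pairs found by chaining replicate 2 peaks instead, 2272 (87.8%) had different replicate 1 peaks. These shares were not set beside those of other neighbours. In the 2391 pairs the replicate 2 distance had a median of 1191 bp. It differed from the replicate 1 distance by a median of 45 bp (interquartile range 21 to 83 bp), and by at most 100 bp in 82.4% of the pairs. The median signed difference, replicate 2 minus replicate 1, was 1 bp. Similar spacing is partly set by the rule, because members had to overlap a replicate 2 peak and the overlapping peak with the nearest summit was used. Summits shifted between the replicates by a median of 30 bp in sites of pairs and 31 bp in single sites.

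The choice of replicate 1 for the summits mattered little for which pairs were found, but it did bear on short distances. When the shared peaks of replicate 2 were chained instead, 2589 pairs resulted, and 2216 pairs were common to both, which is 92.1% of the pairs by replicate 1 and 85.6% of those by replicate 2. Of the pairs by replicate 2, 317 (12.2%) lay within a single replicate 1 peak. Their summits were a median of 505 bp apart, and the joint replicate 1 peak was a median of 954 bp wide. In replicate 1 sites in pairs were wider, with a median of 448 bp, than in replicate 2, with 342 bp.

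By definition no further shared summit lies within 2000 bp of a pair. The next one was a median of 7097 bp away (interquartile range 3576 to 17091.5 bp), and for single sites, held to the same limit, the nearest was a median of 8359 bp away (3918 to 19262 bp). Within 2000 bp of a member, 366 pairs (15.2%) had a replicate 1 peak with no counterpart and 85 (3.53%) had such a replicate 2 peak. In 1964 pairs (81.6%) neither list held a peak without a counterpart within that distance. These shares were not computed for single sites, so they cannot be called particular to pairs.

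Close pairs were found on every chromosome. Between 88 and 183 pairs lay on each of the 20 chromosomes. The share of shared sites in pairs was highest on chromosome 6, with 23.8% (95% Wilson interval 21.6 to 26.2), and lowest on chromosome 18, with 19.6% (17.3 to 22.2). These intervals overlap. Across the 20 chromosomes the share had a Pearson correlation of 0.48 and a Spearman correlation of 0.52 with the number of shared sites per Mb, given as a description. Pairs per Mb varied more widely than the share, with 4.00 on chromosome 13 and 1.74 on chromosome 18. Of the sites in pairs 79.0% lay in the outer parts of the chromosomes (25% at either end), and of the single sites 78.8%. Intervals for shares of sites or pairs cover counting error only, and all sites share the same 2 ChIP libraries.

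**Figure D2:**
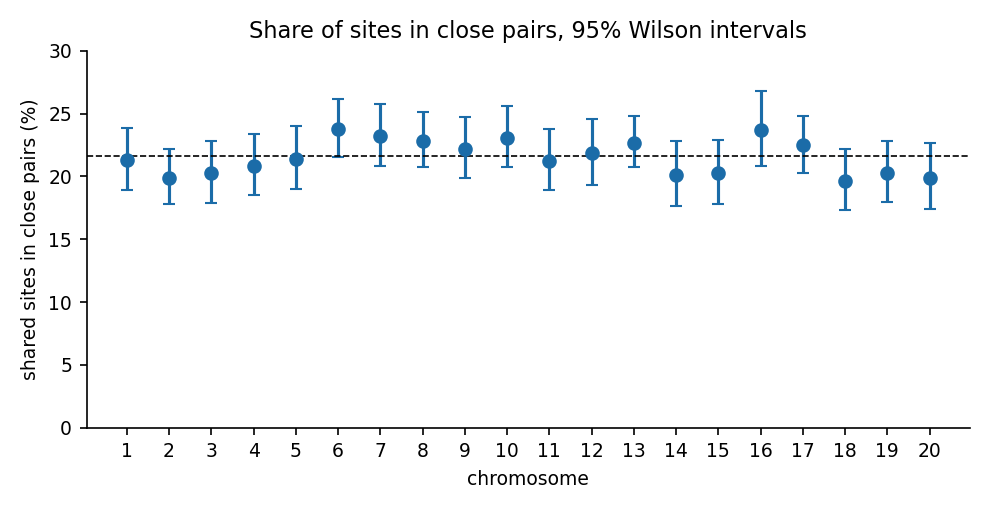
Percent of the shared sites of each of the 20 chromosomes that belonged to close pairs, with 95% Wilson intervals; the dashed line is the share over all chromosomes, 21.6%. The points lie between 19.6% and 23.8%.

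Sites in pairs had slightly higher median folds than single sites in both replicates. The fold, the authors' summit enrichment of ChIP over the caller's background, had a median of 8.44 (interquartile range 5.89 to 12.7) for sites in pairs and 7.64 (5.50 to 11.3) for single sites in replicate 1. In replicate 2 it was 7.20 (5.31 to 11.1) for sites in pairs and 6.84 (5.20 to 10.04) for single sites. The median was higher in pairs on all 20 chromosomes in replicate 1 and on 18 of them in replicate 2. Sites of longer runs had medians of 8.67 in replicate 1 and 7.26 in replicate 2. The quartiles of these classes overlap broadly, and no test was made, because the classes were formed from the same peak calls. Neighbours 2 to 5 kb apart, which can include sites of pairs, had similar folds, so the higher median was not particular to pairs. Their stronger and weaker members had medians of 11.6 and 6.39 in replicate 1 and 10.3 and 5.59 in replicate 2. In pairs these were 11.5 and 6.37 in replicate 1 and 10.04 and 5.58 in replicate 2.

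The number of overlapping ChIP fragments at the summit, recovered from the deposited fold and p-value, gave a similar picture. Its median was 45 fragments in pairs and 41 in single sites in replicate 1, and 29 in pairs and 28 in single sites in replicate 2. The median background was 4.40 fragments in both classes in replicate 1 and 2.98 in both in replicate 2. A fold of at least 10 in both replicates was reached by 1240 sites in pairs (25.8%) and by 3251 single sites (20.9%). Sites of longer runs reached it in 27.2%. Among members of neighbours the share was 22.5% over all distances and 26.7% at 2 to 5 kb, so it was not particular to pairs.

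The replicates mostly gave the same order of the 2 members of a pair by fold, about as often as for other neighbouring sites. In replicate 1 the stronger member had a median fold of 11.5 and the weaker one 6.37, and in replicate 2 these were 10.04 and 5.58. The median ratio of stronger to weaker within a pair was 1.66 in replicate 1 (interquartile range 1.27 to 2.32) and 1.60 in replicate 2 (1.25 to 2.31). It exceeds 1 by construction, and over all neighbours the medians were 1.64 and 1.57. The member that was stronger in replicate 1 was also the stronger one in replicate 2 in 1897 of the 2391 pairs, or 79.3% (95% Wilson interval 77.7 to 80.9). Over all 22210 comparable neighbours, whatever their distance, the share was 77.3%, so the share in pairs is close to that background. Neighbours 2 to 5 kb apart gave 79.2%, and those 20 to 100 kb apart gave 76.3%.

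The size of the difference was kept as well as its direction. Across the 2391 pairs the log2 ratio of the member at the higher coordinate to that at the lower had a Pearson correlation between the replicates of 0.80 and a Spearman correlation of 0.78. This is a description across pairs that share both libraries. For the member chosen as stronger in replicate 1, the median ratio in replicate 2 was 1.52, smaller than the 1.66 on which it was chosen. Neighbours over 2 kb apart had a Pearson correlation of 0.78 and a median replicate 2 ratio of 1.46. Neither side of the pair was favoured, since the member at the higher coordinate was the stronger one in 51.5% of pairs in replicate 1 and in 50.9% in replicate 2.

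**Figure D3:**
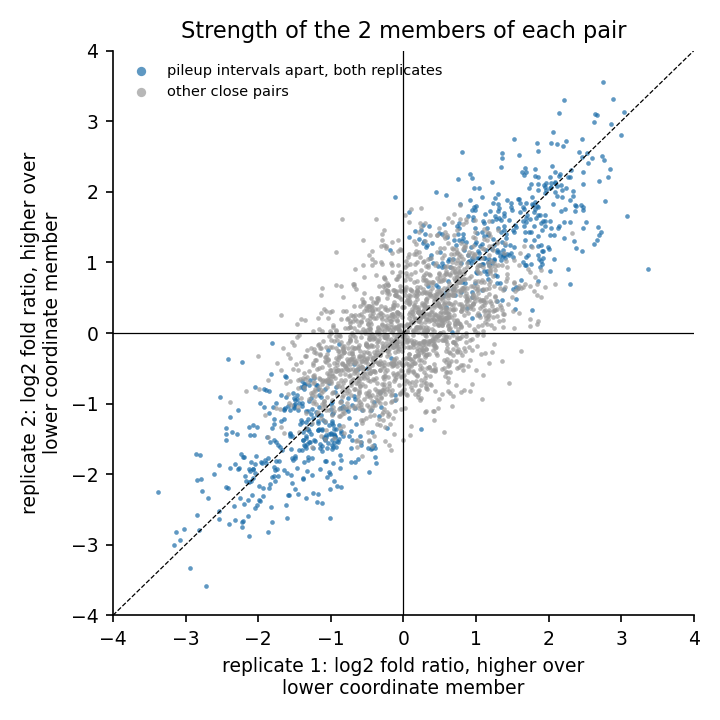
Log2 fold ratio of the member at the higher over that at the lower coordinate in replicate 1 (x axis) and replicate 2 (y axis) for 2391 close pairs; blue points are the 702 pairs whose pileup intervals were apart in the same direction in both replicates, and the dashed line marks equal ratios. The cloud follows the dashed line, and no blue point lies far into the quadrants of opposite sign.

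Agreement between the replicates rose with the inequality of the pair. Among the 561 pairs whose members lay within 1.25-fold of each other in replicate 1, the same member was stronger in replicate 2 in 58.5% (54.3 to 62.5). The share was 68.4% at ratios of 1.25 to 1.5, 82.7% at 1.5 to 2 and 95.4% at 2 to 4. In all 163 pairs with a ratio of at least 4 the order was the same in replicate 2 (100%, 97.7 to 100). Neighbours over 2 kb apart showed similar steps, with 57.0% in the lowest class and 99.2% in the highest. Agreement was not higher at more fragments: where the lowest of the 4 counts of a pair was at most 15 it was 80.0% (73.4 to 85.3), and where that count was over 50 it was 70.9% (62.2 to 78.4). The median replicate 1 ratio was 1.34 in pairs of over 50 fragments and 1.66 in those of at most 15.

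**Figure D4:**
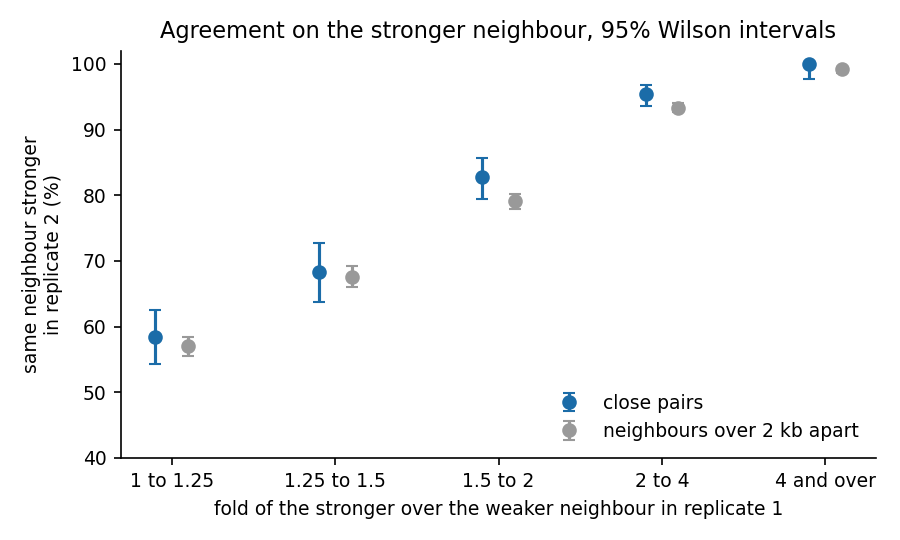
Percent of neighbours in which the member that was stronger in replicate 1 was also stronger in replicate 2, by the ratio of stronger to weaker fold in replicate 1, for close pairs (blue) and neighbours over 2 kb apart (grey); bars are 95% Wilson intervals and the y axis starts at 40%. Both groups climb from under 60% to nearly 100%.

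Clear inequality in both replicates was found in a minority of the pairs, at close to the share among all neighbours. The folds differed at least 2-fold in the same direction in both replicates in 505 pairs (21.1%, 19.5 to 22.8), against 20.4% of all neighbours. A difference of at least 4-fold in both was found in 83 pairs (3.47%, 2.81 to 4.28), against 2.91% of all neighbours. The exact 95% Poisson intervals of the members' fragment counts were apart in the same direction in both replicates in 702 pairs (29.4%, 27.6 to 31.2), against 26.7% of all neighbours. No pair had intervals apart in opposite directions (0 of 2391, with an upper Wilson limit of 0.160%), and likewise 0 of all 22210 neighbours. At the other end, 615 pairs (25.7%) had members within 1.5-fold of each other in both replicates, against 27.1% of all neighbours.

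Pairs of 2 strong members were more common at longer spacings within the 2000 bp. Both members reached a fold of 10 in both replicates in 170 pairs (7.11%, 6.15 to 8.21), against 5.32% of all neighbours. This held for 0 of the 38 comparable pairs at most 500 bp apart, which allows a share of up to 9.18% by the Wilson interval. It was 4.95% (3.64 to 6.69) of those 500 to 1000 bp apart, 6.52% (5.08 to 8.33) at 1000 to 1500 bp and 10.8% (8.69 to 13.4) at 1500 to 2000 bp. At 2 to 5 kb it was 7.32%. Members reaching that fold also became more frequent with spacing, at 23.0%, 26.3% and 29.3% of the members in the last 3 classes. The squares of these shares, 5.31%, 6.94% and 8.60%, are what unrelated members would give, and over all pairs that value was 6.66%. Strong peaks were also wide. The sum of half-widths had a median of 634.5 bp in the 170 pairs and 464 bp in all 2391 pairs, and the part of width in this trend was not tested.

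The strength of one member said little about that of the other. The Pearson correlation of the members' log2 folds across pairs was 0.10 in replicate 1 and 0.06 in replicate 2, which is too weak to count as a result. Over all neighbours it was 0.06 and 0.03. By spacing it was 0.04 and 0.02 at 500 to 1000 bp, 0.06 and 0.02 at 1000 to 1500 bp, and 0.18 and 0.13 at 1500 to 2000 bp. Deviations between replicates were likewise separate, since the log2 ratio of replicate 1 to replicate 2 at one member and at the other had a Pearson correlation of 0.02. That ratio had an SD of 0.48 over the members.

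The pairs with 2 of the strongest members are described by the fold of the weakest of their 4 values. First was a pair on chromosome 15, at 10019319 to 10020301 and 10020579 to 10021758. The member at the lower coordinate had folds of 43.9 in replicate 1 and 51.7 in replicate 2, and its neighbour had 46.5 and 42.2. Their order thus differed between the replicates. The summits were 1709 bp apart in replicate 1 and 1682 bp in replicate 2. The first member rested on 236 fragments (95% exact Poisson interval 207 to 268) and 203 (176 to 233), its neighbour on 227 (198 to 259) and 167 (143 to 194), so the intervals overlapped in both replicates.

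A pair on chromosome 6, at 4041061 to 4041593 and 4042526 to 4043359, had its stronger member at the higher coordinate. That member had folds of 44.1 in replicate 1 and 36.6 in replicate 2, and the weaker one had 38.3 and 29.9. On chromosome 13 the pair at 38569872 to 38570516 and 38570763 to 38571527 was the tightest of these 6, with summits 972 bp apart in replicate 1 and 950 bp in replicate 2. Its stronger member, at the higher coordinate, had folds of 46.7 and 45.2, and the weaker one 33.7 and 28.9. Both replicates gave the same order by fold in each of these 2 pairs. By fragments the chromosome 6 pair changed order, with 192 in replicate 1 and 120 in replicate 2 at the member of higher fold and 172 and 133 at the other, whose replicate 2 background was higher (3.48 against 2.31).

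The remaining 3 of the 6 strongest pairs lay on chromosomes 17, 14 and 6. On chromosome 17, the member at 33504651 to 33505305 had folds of 51.1 in replicate 1 and 41.8 in replicate 2, and that at 33503535 to 33504200 had 24.0 and 27.3. The other pair on chromosome 6, at 6944169 to 6945427 and 6946211 to 6946931, had a ratio of stronger to weaker of 2.00 in both replicates. It was 1984 bp apart, close to the limit. The pair on chromosome 14, at 48588732 to 48589415 and 48590532 to 48591126, differed in order between the replicates, with ratios of the first to the second of 0.911 in replicate 1 and 1.30 in replicate 2.

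In the 4 most unequal pairs a site with folds of 28.1 to 43.4 stood beside one with folds of 3.21 to 5.22. The pair on chromosome 9 at 33531988 to 33532257 and 33532946 to 33533866 had folds of 34.3 in replicate 1 and 28.1 in replicate 2 at its stronger member, and of 4.18 and 3.21 at the weaker one. The ratio was 8.19 in replicate 1 and 8.75 in replicate 2. The stronger member rested on 184 (158 to 213) and 153 (130 to 179) fragments, and the weaker on 21 (13 to 32) and 15 (8.40 to 24.7). These intervals lie far apart in both replicates.

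Another such pair, on chromosome 7 at 43808126 to 43808802 and 43809687 to 43810093, had folds of 39.0 and 42.9 at the stronger member and 5.10 and 4.28 at the weaker. Similar inequality was present on chromosome 8, at 40318306 to 40319867 and 40320289 to 40320619, with ratios of 8.91 in replicate 1 and 8.01 in replicate 2. On chromosome 17, at 40785827 to 40787024 and 40788191 to 40788420, the ratios were 8.45 and 7.62. The weaker members of these 4 pairs were still called in both lists, with at least 15 fragments each.

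Equal pairs also existed among strong sites. Of the 170 pairs with all 4 folds at least 10, the most equal was on chromosome 5 at 33885514 to 33886467 and 33886538 to 33887567. The member at the higher coordinate had folds of 14.5 in replicate 1 and 12.9 in replicate 2, and the other had 14.3 and 13.0. On chromosome 7, at 2305458 to 2306403 and 2307538 to 2308230, the folds were 22.4 and 20.1 at one member and 22.1 and 19.7 at the other. On chromosome 20, at 34258230 to 34259166 and 34259685 to 34260326, they were 21.7 and 21.0 at one member and 20.7 and 20.8 at the other. The Poisson intervals of the fragment counts overlapped between the members of all 3 pairs in replicate 1. In replicate 2 they overlapped for all but the chromosome 20 pair, whose members had 74 fragments (58.1 to 92.9) on a background of 2.57 and 113 (93.1 to 136) on one of 4.48.

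**Figure D5:**
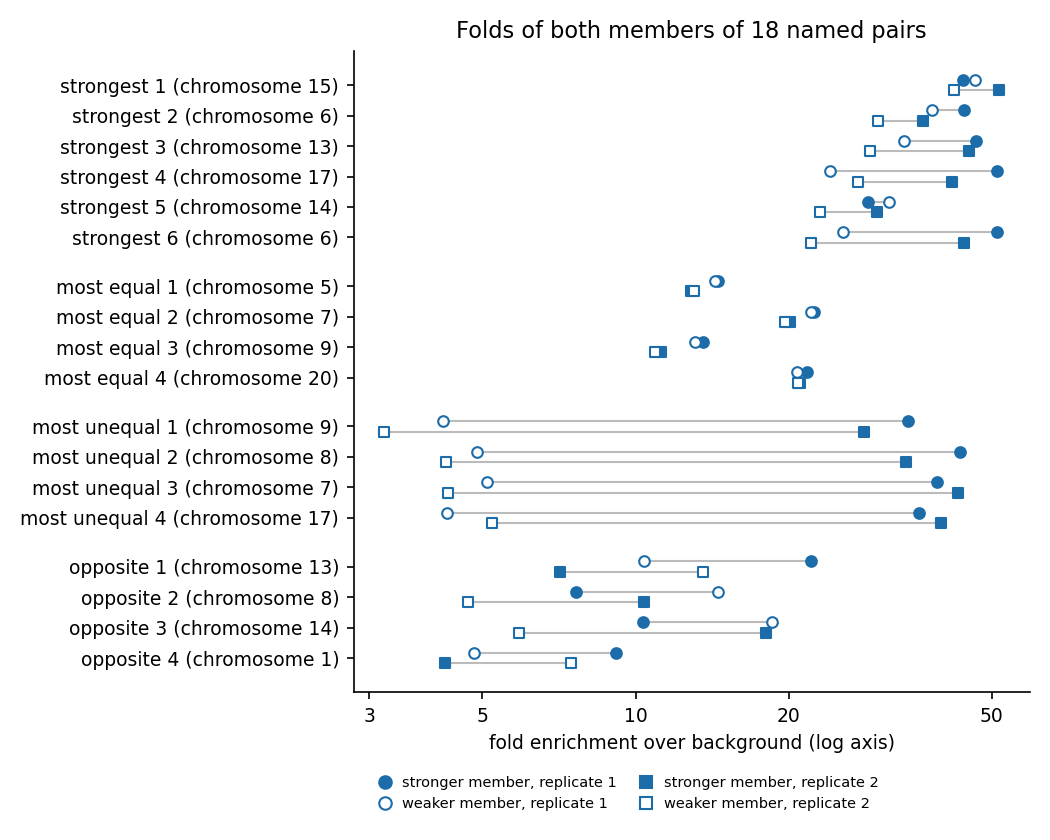
Fold enrichment (log axis) of both members of 18 pairs, named by rank and chromosome, with the stronger member filled and the weaker open, circles for replicate 1 and squares for replicate 2; stronger means the higher log2 fold summed over both replicates. The most unequal pairs span 3.21 to 43.4, while the filled and open symbols trade places in the 4 pairs of opposite order. They also trade places, by smaller ratios, in the pairs labelled strongest 1, strongest 5 and most equal 1.

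Opposite order between the replicates was found in 490 pairs (20.5%). The same order was found in 79.3% of pairs and in 77.3% of all neighbours. In 253 of the 490 pairs the members lay within 1.5-fold of each other in both replicates. In 24 the ratio was at least 1.5 in opposite directions in both. These 2 counts were not made over all neighbours, so they describe the pairs only. The extreme case was on chromosome 13, at 20775769 to 20776275 and 20776871 to 20777801. The member at the higher coordinate had folds of 22.1 in replicate 1 and 7.11 in replicate 2, and the other had 10.4 and 13.6. Fragment counts reversed too, with 103 in replicate 1 and 45 in replicate 2 at the first and 55 and 53 at the other. The backgrounds were 3.71 and 5.47 fragments at the first and 4.40 and 2.98 at the other.

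Another pair of opposite order was on chromosome 14, at 33091605 to 33092164 and 33093203 to 33093795. There the member at the higher coordinate had folds of 10.3 and 18.1 on backgrounds of 7.04 and 3.04, and the other had 18.5 and 5.91 on 3.11 and 7.46. Its fragment counts were 82 and 72 at the first member and 75 and 49 at the other, in the same order in both replicates. In the other 2 of the 4 most opposite pairs, on chromosomes 8 and 1, the fragment counts reversed as the folds did. By fragment counts alone, the same member was higher in both replicates in 265 of the 490 pairs and in 2002 of all 2391 (83.7%). The share by fragment counts was not computed over all neighbours, so it describes the pairs only.

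The closest pairs with separate peaks in both replicates were of modest strength. The nearest summits by replicate 1, on chromosome 8 at 8018772 and 8019161, were 389 bp apart in replicate 1 and 481 bp in replicate 2. The member at the lower coordinate had folds of 6.91 and 5.20, and its neighbour had 6.42 and 4.93. A pair on chromosome 1, with summits at 53633305 and 53633697, was 392 bp apart in replicate 1 and 431 bp in replicate 2. It was unequal, with folds of 10.05 and 7.03 at the stronger member and 4.37 and 3.46 at the weaker. The other 2 of these 4 closest pairs, on chromosomes 6 and 11, had folds between 4.31 and 6.64. By replicate 2 another pair was the closest, at 346 bp, and the chromosome 11 pair was 362 bp apart.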

How the data were processed

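ChIP and input libraries were prepared for 2 replicates, and the data used are the authors' peak lists, 1 per ChIP replicate. The submitters' processing notes name Bowtie 0.12.7 and MACS2; a MACS2 version and a genome build are not given. The authors deposited for each peak a score, a fold (a linear ratio of ChIP to background at the summit) together with −log10 p-values and −log10 q-values. The score was the whole part of 10 times −log10 q in 99.997% of replicate 1 peaks and 99.96% of replicate 2 peaks. Lowest −log10 q values were 2.05 and 2.16 in replicates 1 and 2. The labels do not say whether the replicates came from separate plants, so their spread may be technical.

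Read totals are not given. The fragment count k at each summit and the background λ were found from fold = (k + 1)/(λ + 1) and the Poisson tail above k, as MACS2 computes them. Recovered k deviated from whole numbers by at most 0.0721% (replicate 1) and 0.581% (replicate 2) of a step; all 5000 simulated peaks were recovered (100%). The median was 34 fragments in replicate 1 and 26 in replicate 2. Exact Poisson and Wilson intervals (95%) cover counting error only, since PCR copies are not independent molecules.

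Where several replicate 2 peaks overlapped a member, the one with the nearest summit was used. With 2 ChIP samples no test over samples was possible, so shares, medians and intervals are given as descriptions. Members and rules were chosen with earlier results of these data known. Named pairs are the 6 with the highest lowest fold, the 4 most unequal in the same direction and the 4 closest. Also named are the 4 most equal with all folds at least 10 and the 4 most opposite. Of those nearest to the limit, 2 just inside and 2 just outside were taken. Alternatives changed the q threshold, the overlap, the distance, the replicate chained, the strength measure and the background limit. Genes and sequences were not analysed here: the gene table at hand is of another assembly, or one not shown to be the same, and holds 0 GLYMA identifiers. Python 3.11.15, numpy 2.4.6, scipy 1.17.1, pandas 2.3.3 and matplotlib 3.10.9 were used.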

Additional observations from a re-analysis of the deposited data

Results flagged for a closer look

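Unplaced scaffolds, which the definition of the pairs leaves out, also carried close pairs: 134 shared sites on scaffolds formed 16 runs of exactly 2 within 2000 bp, which hold 23.9% of those sites. They are given because they lie in data that the comparisons do not use, with no input peaks to set beside them.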

How the results depend on the processing

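The number of close pairs fell to 1305 with a −log10 q of at least 10 and to 1134 with a distance of 1000 bp, and was 2913 to 3726 when the peaks of a single replicate were chained. The median distance was 1201 bp with the stricter q, 765 bp and 1498 bp with limits of 1000 and 3000 bp, 1094 bp with replicate 2 summits and 1086 to 1155 bp with a single replicate. The limits set these distances by construction, and for the others the cause was not tested. The same member was stronger in both replicates in 84.1% of pairs by −log10 q in place of fold, with a Spearman correlation of 0.850 between replicates and a median ratio of 2.37. The median ratio was 1.594 with the stricter q, 1.595 for the replicate 2 peaks of pairs by replicate 2 summits, and 1.58 to 1.63 with a single replicate. The median lower-of-2 fold in pairs was 6.66, against 6.19 in single sites. It was 8.63 against 8.03 with the stricter q, which removes weak peaks by construction. With a single replicate there is no lower of 2. The plain median fold was then 6.66 in pairs and 6.16 in single sites for replicate 1, and 6.73 and 6.35 for replicate 2. Fragment intervals were apart in 25.8% of pairs with a limit of 1000 bp. Of the 56 comparisons with an alternative, 39 stayed within the spread or interval of the reported value, or, for the number of pairs, within 1.5 times of it. With a single replicate, the 2913 pairs, the ratio of 1.63 and the folds of 6.66 and 6.73 in pairs were among these 39. Spread means the SD of the 2 replicate medians on either side of the reported value. For the lower-of-2 fold it came from the plain median folds and ran from 5.78 to 7.53, which also holds the 6.19 of single sites. No paired analysis was possible because no values of the inputs themselves were used, only the authors' ChIP peaks. Depth limits which sites can be members, since no peak was called under 12 fragments in replicate 1 and 11 in replicate 2.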
